A study of Mus musculus with 6 samples.

Results

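The genes described here are 10 transcription factor genes of embryonic mesenchyme: Prrx1, Prrx2, Twist1, Twist2, Tcf15, Tcf21, Tbx3, Tbx5, Tbx18 and Tbx20. They were chosen by name, with earlier results of these data known. Their 19 probes were found by gene symbol among the 56583 probes (37001 gene names) kept from a 1-colour Agilent array. All 10 genes were on the array. The samples were 3 teratomas that received a miR-124a-3p mimic and 3 that received a miRNA negative control, grown in 3 BALB/c nude mice per group. All 6 tumours grew from mouse embryonic stem cells placed under the skin, and all were injected with 15 µg of microRNA per 100 µL with the carrier Atelogen QG every 3 days up to day 28, beginning about 10 days after inoculation. A teratoma mixes many tissues, and the RNA of 1 of the 2 pieces of each tumour was measured in bulk, so less RNA per cell and fewer cells of a type cannot be told apart in any result below. Nude mice lack a thymus but keep other host cells, so host stroma and blood cells can be in the sample. The labels give neither the stem cell line nor the age of the mice.

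Mesenchyme is the loose embryonic tissue that gives rise to connective tissue, skeleton and muscle coats. Prrx1 and Prrx2 encode paired-related homeodomain proteins of limb bud and facial mesenchyme. Twist1 and Twist2 encode basic helix-loop-helix (bHLH) proteins that bind E-box DNA with partner bHLH proteins. Twist1 acts in cranial mesoderm and neural crest mesenchyme and in epithelial to mesenchymal transition, and Twist2, also called Dermo1, in the dermis. Tcf15, or paraxis, acts in the somites, and Tcf21 in epicardium and in the mesenchyme of lung and kidney. Tbx3, Tbx5, Tbx18 and Tbx20 belong to the T-box family. Tbx5 is needed for heart and forelimb, Tbx3 for limb, mammary gland and the cardiac conduction system, Tbx18 for somites, epicardium and the sinus node, and Tbx20 for heart muscle and endocardium. The microRNA miR-124 is best known from neurons, where it is plentiful.

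Prrx1 and Prrx2 are shown first by the probes that read corresponding stretches of both messages so that it can be seen how far the letters of these relatives differ where they were measured. The Prrx1 probe lies at chr1:165187974-165188033 on the minus strand and the Prrx2 probe at chr2:30735039-30735098 on the plus strand (array annotation, build mm9). Both are written 5′ to 3′, and capitals mark bases that are identical in the best ungapped alignment.
Prrx1 probe: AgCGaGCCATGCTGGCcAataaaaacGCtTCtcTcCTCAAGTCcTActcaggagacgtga
Prrx2 probe: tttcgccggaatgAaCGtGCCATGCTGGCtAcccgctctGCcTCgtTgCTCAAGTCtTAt
They overlapped over 47 bases, of which 30 were identical and 17 differed. In the other 8 pairings of a Prrx1 probe with a Prrx2 probe, identity ran from 31.0% to 38.6% of the overlapping bases, against 63.8% for the pair printed here.

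Of the 10 genes, 8 were tested, because a probe of each stood well above background in all 3 tumours of 1 or both groups, and 2 of these 8, Prrx1 and Tbx3, fell in the miR-124a tumours (limma, adjusted p under 0.05 over 22946 genes). Over all genes tested, 2.68% were called lower, 0.501% higher and 3.18% in either direction (730 genes, 84.2% of them lower, against 1549 genes and 62.5% lower when normexp and quantile scaling were used). Prrx2, Twist1, Twist2, Tcf15, Tcf21 and Tbx18 did not pass. The same 2 of the 8 had an unadjusted p under 0.05, as did 27.1% of all genes tested. The median log2 fold change of the 8 was -0.23, beside -0.000723 over all genes tested. For 4 of the 8 the tumours separated completely by group, 3 on the lower side (Prrx1, Prrx2 and Tbx3) and 1 on the higher side (Twist2). Over all genes tested 35.4% separated, 20.2% on the lower and 15.1% on the higher side. The genes were chosen with earlier results of these data known, so these counts describe them and are no test of them. A log2 value of 0 below stands for the 75th percentile of that array.

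**Figure D1:**
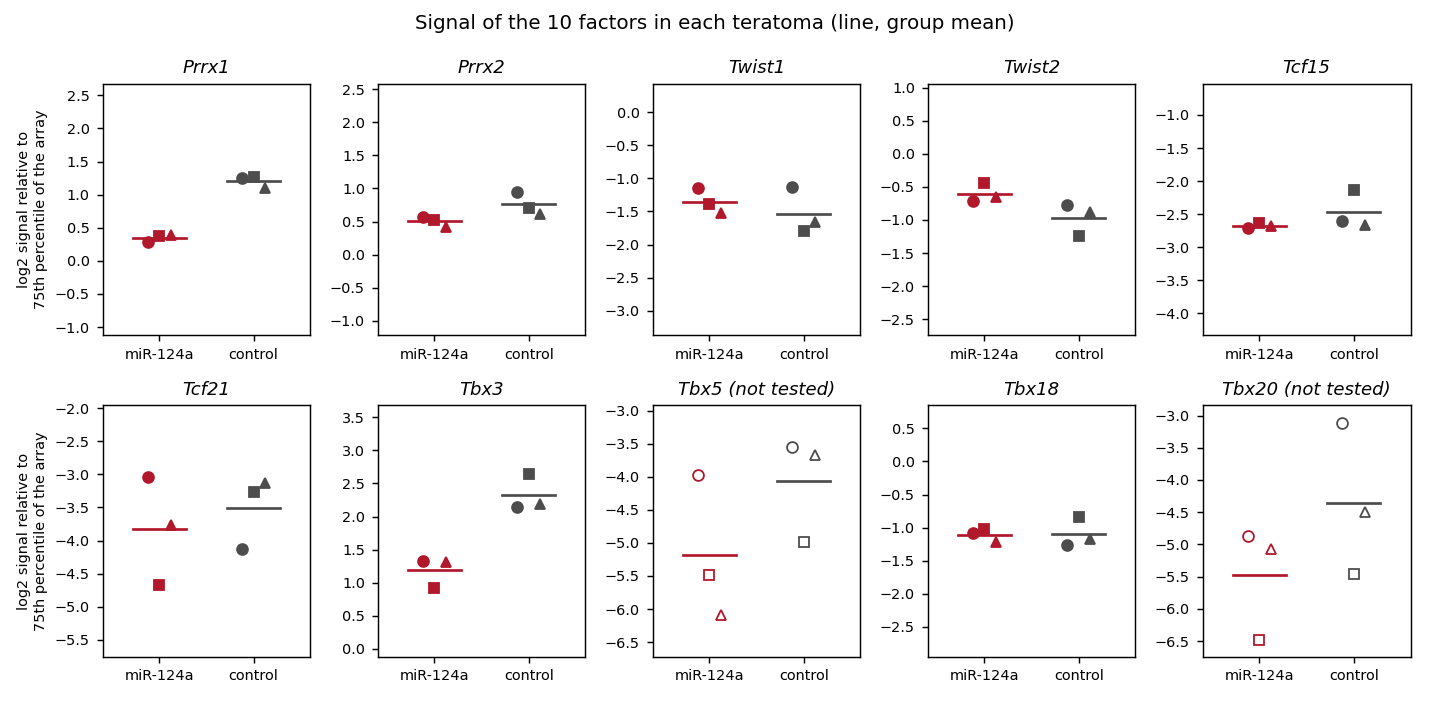
Signal of the 10 genes in each teratoma, as log2 relative to the 75th percentile of the array; miR-124a tumours are on the left and control tumours on the right of each panel, circles, squares and triangles are replicates 1, 2 and 3, and the line is the group mean. Open symbols mark Tbx5 and Tbx20, which were too dim to be tested. The miR-124a values of Prrx1 and Tbx3 all lie below the control values. Those of Prrx2 also do by a small gap, and those of Twist2 all lie just above.

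Prrx1 gave the tightest difference. At its brighter probe, printed above, the log2 values were 0.29, 0.37 and 0.38 in miR-124a 1 to 3 and 1.26, 1.26 and 1.105 in control 1 to 3. The lowest control tumour stood well above the highest miR-124a tumour. The means were 0.35 ± 0.05 in miR-124a tumours and 1.21 ± 0.09 in control tumours (SD, n = 3 each), a log2 fold change of -0.86 ± 0.09 (SE, adjusted p = 0.0215), which is 1.81-fold lower. The 95% interval of this change ran from -1.08 to -0.64. By size of p Prrx1 was number 59 of the 22946 genes tested.

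A second Prrx1 probe, at chromosome 1, 165175375 to 165175434, is annotated to another Prrx1 transcript and also fell. Its log2 values were -0.07, 0.15 and 0.06 in miR-124a 1 to 3 and 0.79, 0.88 and 0.80 in control 1 to 3, again without overlap. In a fit over all 35719 tested probes, of which 2.72% were called and 2.31% were called lower, this probe fell by 0.78 ± 0.10 on the log2 scale (SE, n = 3 per group, adjusted p = 0.0248). The third probe, at 165213239 to 165213298, is drawn from an Ensembl transcript and was well above background on 1 control array and no miR-124a array, so it was not tested; its processed intensity was 5.6 to 7.7 in miR-124a tumours and 5.1 to 7.7 in control tumours. The fall of Prrx1 therefore rests on both bright probes of the 3.

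Leaving out 1 tumour at a time kept the log2 fold change of Prrx1 between -0.91 and -0.83, and its adjusted p was 0.0405 without miR-124a 3 and 0.0362 without control 3. With the other tumours left out it missed the threshold: 0.102 (miR-124a 1), 0.0841 (miR-124a 2), 0.0687 (control 1) and 0.0704 (control 2).

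Prrx2, the closest relative of Prrx1, had 3 tested probes. At the brightest, on chromosome 2 at 30736678 to 30736737, the log2 values were 0.56, 0.53 and 0.41 in miR-124a 1 to 3 and 0.95, 0.71 and 0.62 in control 1 to 3. The lowest control value lay just above the highest miR-124a value. The log2 fold change was -0.26 ± 0.12 (SE, adjusted p = 0.219), with a 95% interval from -0.54 to 0.03. The other Prrx2 probes had -0.16 ± 0.12 and, for the probe printed above, -0.29 ± 0.11 (adjusted p = 0.418 and 0.162), and the first of these overlapped between groups.

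Whether Prrx1 and Prrx2 changed by unequal amounts was asked within each array. The log2 difference of Prrx1 minus Prrx2 was -0.27, -0.16 and -0.03 in miR-124a 1 to 3 and 0.30, 0.56 and 0.49 in control 1 to 3. All miR-124a tumours were below all control tumours. The change in this difference was -0.60 (95% interval -0.89 to -0.31, a t interval not adjusted over the pairs). The two-sided exact permutation test gave p = 0.1, its minimum for 3 tumours against 3, or 0.5 after Benjamini-Hochberg adjustment over 5 pairs of genes. An unequal change of Prrx1 and Prrx2 was therefore not established.

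**Figure D2:**
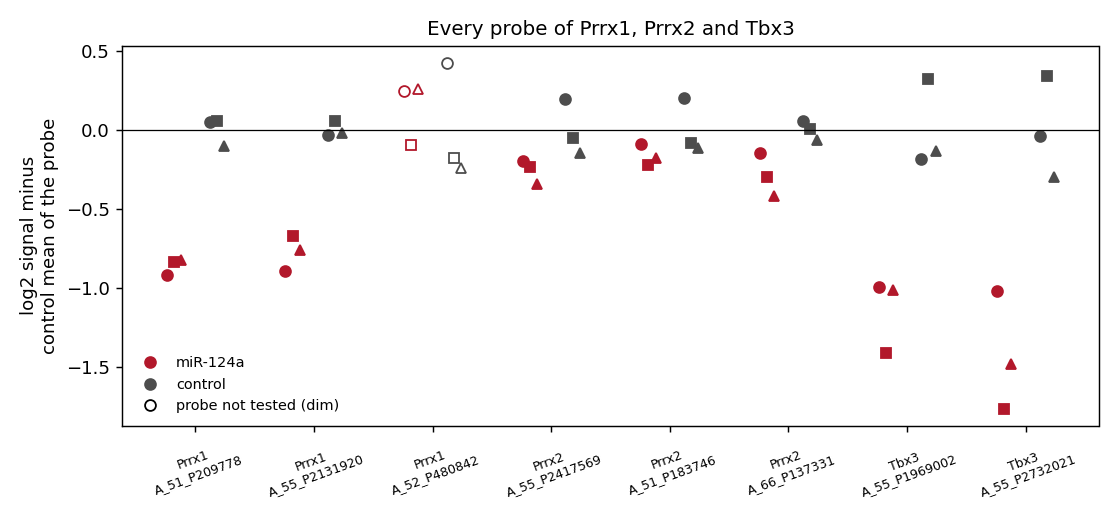
Every probe of Prrx1, Prrx2 and Tbx3, as log2 signal minus the control mean of that probe; red symbols are miR-124a tumours, grey symbols control tumours, and circles, squares and triangles are replicates 1, 2 and 3. Both bright probes of Prrx1 and both probes of Tbx3 have all miR-124a values below all control values, and the dim Prrx1 probe (open symbols) does not separate the groups. The brightest and the dimmest Prrx2 probe also separate the groups, by a smaller gap, and the other Prrx2 probe does not.

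Tbx3 had the largest change among the 8 tested genes. At its brighter probe, on chromosome 5 at 120134511 to 120134570, the log2 values were 1.33, 0.91 and 1.31 in miR-124a 1 to 3 and 2.14, 2.65 and 2.19 in control 1 to 3. The groups did not overlap, and the spread within each group was wider than for Prrx1. The means were 1.19 ± 0.24 in miR-124a tumours and 2.33 ± 0.28 in control tumours (SD, n = 3 each). The log2 fold change of -1.14 ± 0.18 (SE, adjusted p = 0.0368) corresponds to a 2.20-fold lower signal, with a 95% interval from -1.59 to -0.69 on the log2 scale.

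The second Tbx3 probe is shown because it repeats the fall upstream in the same transcript; it reads chr5:120132985-120133044 on the plus strand (mm9) and is written 5′ to 3′ with no base marked.
Tbx3 probe: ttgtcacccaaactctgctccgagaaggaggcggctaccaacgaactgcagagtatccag
Its log2 values were -1.53, -2.28 and -1.995 in miR-124a 1 to 3 and -0.56, -0.18 and -0.82 in control 1 to 3. This probe fell by 1.42 ± 0.24 (SE, n = 3 per group, adjusted p = 0.0396 over tested probes). At both probes miR-124a 2 was the lowest and control 2 the highest tumour.

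The Tbx3 call was lost without any 1 tumour, with log2 fold changes from -1.23 to -0.98. The adjusted p was then 0.132, 0.120 and 0.0751 for miR-124a 1, 2 and 3 and 0.0751, 0.0854 and 0.0645 for control 1, 2 and 3, and it was 0.0884 with no filter on dim probes.

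Tbx5 and Tbx20, both factors of heart development, were at the edge of detection. Tbx5, which lies beside Tbx3 on chromosome 5 (probe at 120334087 to 120334146), had processed intensities of 13.7, 4.6 and 3.3 in miR-124a 1 to 3 and 16.9, 6.2 and 16.3 in control 1 to 3, and was well above background on 1 miR-124a and 2 control arrays. The groups overlapped. Tbx20 had 5 probes on chromosome 9, the brightest at 24527750 to 24527809 with intensities of 7.4, 2.3 and 6.6 in miR-124a 1 to 3 and 23.0, 4.5 and 9.2 in control 1 to 3. It was well above background on 0 miR-124a and 2 control arrays, and the other 4 probes on none. Neither gene passed the filter, and without the filter neither passed the threshold (limma, adjusted p = 0.416 for Tbx5 and 0.429 for Tbx20).

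Tbx18, on the same chromosome as Tbx20 (probe at 87597824 to 87597883), was well above background on all 6 arrays. Its log2 values were -1.08, -1.02 and -1.22 in miR-124a 1 to 3 and -1.26, -0.85 and -1.17 in control 1 to 3. All miR-124a values lay between the lowest and the highest control value. Its log2 change was -0.02 ± 0.14 (SE, adjusted p = 0.949), with a 95% interval from -0.35 to 0.31.

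The Twist genes had higher mean values in miR-124a tumours and did not pass. Twist2 (chromosome 1, 93744519 to 93744577) had log2 values of -0.72, -0.44 and -0.65 in miR-124a 1 to 3 and -0.78, -1.24 and -0.89 in control 1 to 3. The lowest miR-124a tumour was just above the highest control tumour, and the log2 fold change was 0.36 ± 0.15 (SE, adjusted p = 0.186, 95% interval 0.00 to 0.73, with the lower bound at -0.00222). Twist1 (chromosome 12, 34644411 to 34644470) had -1.15, -1.39 and -1.53 in miR-124a 1 to 3 and -1.14, -1.80 and -1.66 in control 1 to 3. Control 1 was the highest tumour of all for Twist1, and the groups overlapped, with a log2 fold change of 0.18 ± 0.20 (adjusted p = 0.598, 95% interval -0.31 to 0.66). The within-array difference Twist1 minus Twist2 changed by -0.19 (95% interval -0.75 to 0.38, exact two-sided permutation p = 0.4, adjusted 0.667), an interval that leaves room for unequal change either way.

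Tcf15 and Tcf21 were dim but well above background on all 6 arrays. Tcf15 (chromosome 2, 151974683 to 151974742) had log2 values of -2.72, -2.64 and -2.68 in miR-124a 1 to 3 and -2.60, -2.14 and -2.66 in control 1 to 3. Control 2 alone stood apart. The log2 fold change was -0.21 ± 0.15 (SE, adjusted p = 0.416). Tcf21 (chromosome 10, 22537563 to 22537622) had -3.05, -4.67 and -3.77 in miR-124a 1 to 3 and -4.13, -3.26 and -3.13 in control 1 to 3. Its tumours ranged more widely within groups than those of the other tested members, with an SD of 0.81 in miR-124a tumours and 0.54 in control tumours. The log2 fold change of -0.32 ± 0.46 (SE, adjusted p = 0.678) had a 95% interval from -1.42 to 0.78, so a change of 2-fold (1 on the log2 scale) downwards lay inside it. The within-array difference Tcf15 minus Tcf21 changed by 0.11 (95% interval -1.50 to 1.72, exact permutation p = 1, two-sided).

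**Figure D3:**
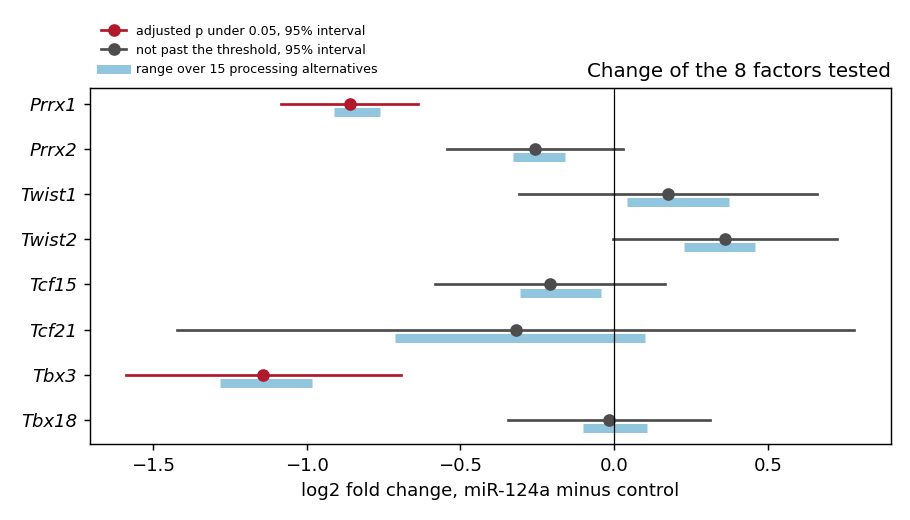
Log2 fold change, miR-124a minus control, of the 8 tested genes (points) with 95% intervals (lines) and the range over 15 processing alternatives (blue bars). The intervals of Prrx1 and Tbx3 lie below 0, and those of the other 6 genes include 0.

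Other T-box genes, from a list of 13 with 12 tested, moved in part with Tbx3. Of the 12, 3 fell and 9 did not pass, beside 2.68% called lower of all genes tested. The median log2 fold change of the 12 was -0.01. Tbx1, a factor of the pharyngeal arches, fell by 1.64 ± 0.26 (SE, n = 3 per group, adjusted p = 0.0355). Tbx4, of hindlimb and lung mesenchyme, fell by 1.45 ± 0.16 (adjusted p = 0.0215), or by 0.83 with normexp and quantile scaling. Tbx15, of limb and skin mesenchyme, fell by 1.53 ± 0.21 (adjusted p = 0.0264). Tbx2, the closest relative of Tbx3, changed by -0.00491 on the log2 scale (adjusted p = 0.987; named after its values were seen). Eomes, of early mesoderm and cortical progenitors, had 1.02 ± 0.22 and did not pass (adjusted p = 0.0653).

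Among 12 tested bHLH relatives and partners of the Twist proteins, 2 fell and 10 did not pass. Their median was -0.01, and 2.68% of all genes tested were called lower. The 2 bHLH genes that fell are not partners of Twist but relatives: Msc, a bHLH repressor of muscle precursors, by 1.76 ± 0.25 (adjusted p = 0.0292), and Scx, of tendon progenitors, by 1.64 ± 0.27 (adjusted p = 0.0368). Msc was dim and well above background on no more than 5 of the 6 arrays. It thus entered the test through 1 group only, and the filter requiring all 6 dropped it. Its values in control 1 to 3 were -3.14, -2.30 and -2.78. In miR-124a 1 to 3 the Msc values were -4.81, -4.18 and -4.51. The lowest values well above background on those arrays were -4.83, -4.80 and -4.96. The size of the Msc fall is thus uncertain, and it was -0.40 with normexp and quantile scaling. The E-protein partners Tcf3, Tcf4 and Tcf12 stood at -0.14, 0.01 and -0.24 on the log2 fold change scale (adjusted p = 0.590, 0.961 and 0.430; named after their values were seen). Id2, which blocks E proteins, had 0.33 ± 0.09 (adjusted p = 0.0871).

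Of 18 tested homeobox and Pax factors of mesenchyme, 1 fell and 17 did not pass, beside 2.68% called lower of all genes tested. The median of the 18 was -0.21. Meox2, of somite and limb muscle precursors, had -0.48 ± 0.09 (adjusted p = 0.0539). Of 20 other mesenchymal factors, 0 passed, with a median of -0.09. Beside 27.1% of all genes tested, 3 of the 20 had an unadjusted p under 0.05 (limma). These were Snai1, Snai2 and Osr2 at -0.51, -0.61 and -0.64 (adjusted p = 0.0630, 0.0664 and 0.111); Snai1 and Snai2 repress epithelial genes. Zeb1 and Zeb2, of the same programme, had -0.15 and -0.10 (adjusted p = 0.304 and 0.526; named after their values were seen).

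Of 21 signals and receptors of limb and mesenchyme, 0 passed, with a median of -0.05. Beside 27.1% of all genes tested, 5 of the 21 had an unadjusted p under 0.05 (limma). The smallest p was that of Tgfbr2, a TGF-beta receptor, at -0.59 ± 0.11 (adjusted p = 0.0528), followed by Bmp4 at -0.80 ± 0.22 and Tgfb2 at -0.44 ± 0.13 (adjusted p = 0.0945 and 0.102). Of 14 tested cardiac partners and targets of T-box factors, 4 fell and 10 did not pass, with a median of -0.70, beside 2.68% called lower of all genes tested. Those that fell were Actc1 (cardiac actin), Isl1, Smyd1 and Mef2c, at -1.39 ± 0.13, -1.06 ± 0.17, -0.91 ± 0.14 and -0.80 ± 0.14 (adjusted p = 0.0198, 0.0357, 0.0357 and 0.0410). Actc1, Smyd1 and Mef2c are also genes of skeletal muscle. Of the 14 cardiac partners and targets, 11 had a negative and 3 a positive log2 fold change. In either direction, 10 of the 14 had an unadjusted p under 0.05 (limma), beside 27.1% of all genes tested.

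Over all 97 tested related genes, 10 fell, 0 rose and 87 did not pass (beside 2.68% called lower of all genes tested), with a median of -0.09. The 10 include Msc, which entered the test through 1 group only. The lists were chosen with earlier results of these data known, so the count of 10 describes them and is no test of them. With 1 tumour fewer the count was 0 (miR-124a 1, miR-124a 2 or control 2 left out), 1 (control 1) or 6 (miR-124a 3 or control 3).

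**Figure D4:**
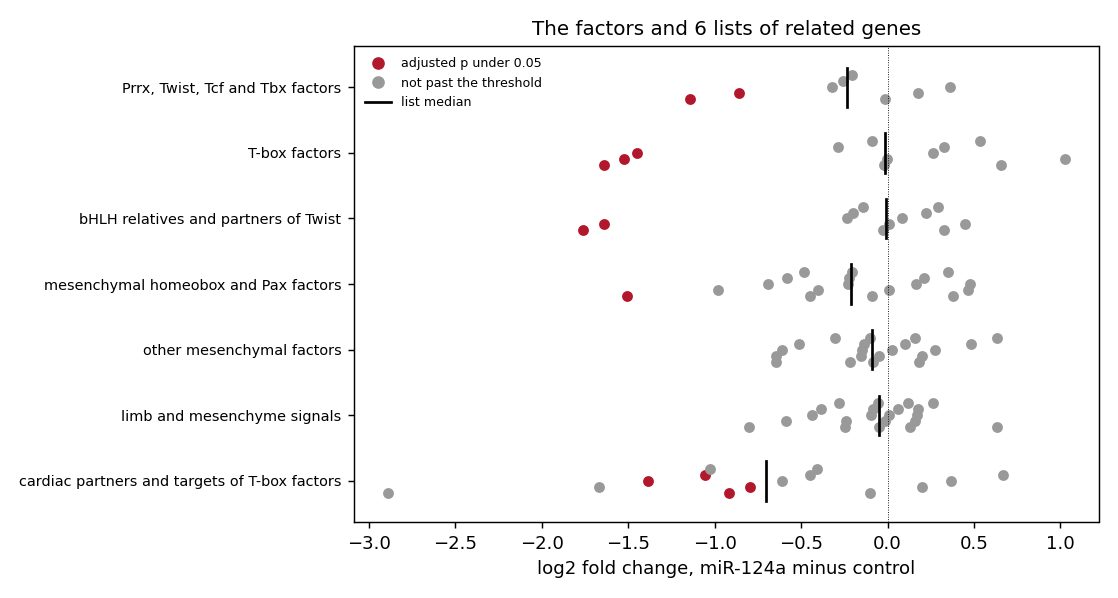
Log2 fold change, miR-124a minus control, of the 8 tested Prrx, Twist, Tcf and Tbx genes (top row) and of 6 lists of related genes; each point is a gene, red points passed the threshold, and the black line is the median of the list. Every red point lies below 0, and the lists of signals and of other mesenchymal factors hold none.

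Markers of other tissues moved in the same tumours. All 11 tested skeletal muscle markers fell, with a median log2 fold change of -1.64, beside 2.68% called lower of all genes tested. The summed signal of these markers, in multiples of the 75th percentile of the array, was 348 to 504 in miR-124a tumours and 911 to 1453 in control tumours. Myf5 was well above background on 0 arrays. Of 6 tested smooth muscle markers 3 fell (Acta2, Smtn and Actg2), beside the same 2.68%. Tagln, Cnn1 and Myh11 did not pass, at -0.29, -0.08 and 0.11 (limma, adjusted p = 0.151, 0.843 and 0.743, named after their values were seen). The summed signal was 38.3 to 43.3 in miR-124a tumours and 70.0 to 84.4 in control tumours. Acta2, the brightest of the 6, weighed most in that sum. The part of these tissues in the values of Prrx1, Tbx3 and the related genes was not tested.

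Of 10 fibroblast markers 0 passed, with a median of -0.42. Beside 27.1% of all genes tested, 5 of the 10 had an unadjusted p under 0.05 (limma). The summed signal of the fibroblast markers was 313 to 377 in miR-124a tumours and 372 to 555 in control tumours. The smallest p was that of Dpt, a dermal matrix protein, at a log2 fold change of -0.63 (adjusted p = 0.0811). Of 7 markers of epicardium and mesothelium, where Tcf21 and Tbx18 are active, 3 were tested and 0 passed (0 at an unadjusted p under 0.05, limma). Upk3b, Lrrn4 and Bnc1 were not detected above background, and Muc16 was not matched. The summed signal of the 3 tested was 2.59 to 5.47 in miR-124a tumours and 1.39 to 7.30 in control tumours.

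The other marker lists had no gene past the threshold. Over all genes tested, 27.1% had an unadjusted p under 0.05 (limma). The summed neuron markers were 184 to 231 in miR-124a tumours and 139 to 159 in control tumours, with 8 of 8 genes at a positive log2 fold change and 6 at an unadjusted p under 0.05 (limma). Adipocyte markers summed to 2.89 to 3.65 in miR-124a tumours and 4.81 to 7.08 in control tumours (2 of 5 tested at an unadjusted p under 0.05). Cartilage markers summed to 6.20 to 6.52 in miR-124a tumours and 5.26 to 6.30 in control tumours, with Matn1 and Matn3 not well above background (1 of 6 tested at an unadjusted p under 0.05). Epithelial, endothelial, macrophage and stem cell sums overlapped between groups (0, 1, 0 and 0 genes at an unadjusted p under 0.05).

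Across the 6 tumours, the profile most like that of Prrx1 was that of Olfml2b, an olfactomedin-like gene, followed by Steap3 and Sh3glb1, with root mean square differences of 0.054 to 0.056 between log2 profiles centred on their own means. For Tbx3 the nearest were Tmem37, Pla2g10 and Rbm38 (0.085 to 0.091), and for Tcf21 Vax1, Dio3os and Slc44a3 (0.096 to 0.177). These were searched among all tested genes and are a description of 6 samples.

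All 6 arrays shared 1 slide and 1 scan, with miR-124a tumours in 1 row of the slide and control tumours in the other, so treatment and slide row cannot be told apart. Between 63.4% and 65.9% of probes were well above background on each array, and 0 spots were saturated. The number of arrays, 3 per group, limits the precision of every value.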

How the data were processed

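Deposited scanner files gave spot intensity per array that Agilent Feature Extraction 11.5.1.1 had background-subtracted and detrended, per the file headers. The authors' deposited table holds log2 values equal to log2 processed intensity minus a constant per array (SD of the difference 0.0029); its column medians were -2.97, -2.99 and -2.98 for miR-124a 1 to 3 and -2.98, -3.07 and -2.98 for control 1 to 3. It was not centred per gene; no tool is given for it in the sources used here. Its columns follow the signal in scale and direction.

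Spots flagged as outliers were left out (22 probes lost), and values are log2 intensity minus the 75th percentile of the array. Genes were named through RefSeq GRCm38.p6 (32974 probes by accession, 10227 by symbol, 519 by older symbol, 12863 kept as in the file; Tbxt appears there as T). Probes well above background on all arrays of a group were tested, the brightest per gene, with limma 3.58.1 in R 4.3.3 (lmFit, eBayes, no covariates, Benjamini-Hochberg, threshold 0.05), miR-124a minus control. Within-array differences used an exact permutation test over 20 splits; for 2 of the 5 pairs, those with Tbx5 or Tbx20, values are not given because these genes were too dim. The model was tested on simulated data.

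Alternatives were quantile scaling, normexp (offset 50) with quantile scaling, the authors' table, other filters, the mean of probes, a replicate block, a variance trend with robust estimation, array weights and leaving out each tumour. Members, lists and alternatives were chosen with earlier results of these data known. Named genes are the 10 members, listed genes that passed or up to 3 with the smallest p, and the nearest profiles. Some listed genes that met this rule are not reported here. Same-numbered tumours correlated at -0.16, -0.04 and -0.06 in their deviations from the group means. These values give no sign of a pairing, but 3 tumours per group are too few to exclude one. Figures used matplotlib 3.10.9.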

Additional observations from a re-analysis of the deposited data

How the results depend on the processing

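Of 120 refits of the 8 tested genes (15 alternatives each), 103 kept direction and side of the threshold, 13 lost a call (5 for Prrx1, 8 for Tbx3), 0 gained one and 4 turned direction, all in genes that did not pass. Those 4 were Tbx18 with normexp and quantile scaling (3.91e-05), without miR-124a 3 (0.04) and without control 2 (0.11), and Tcf21 without miR-124a 2 (0.10); the cause was not tested. When a tumour was left out, Tbx18 ranged from -0.0999 to 0.11 and Tcf21 from -0.71 to 0.10. Both Prrx1 and Tbx3 passed with quantile scaling, normexp, the authors' table, the stricter filter, the mean of probes, the variance trend and array weights, with log2 fold changes from -0.87 to -0.76 and from -1.28 to -1.04. The count of 2 members was 1 with no filter on dim probes, 0 with the replicate block and 0 to 1 when a tumour was left out. The count of 730 genes was 1549 with normexp, 1588 with the variance trend, 81 with no filter (37001 genes tested), 0 with the replicate block (4954 at an unadjusted p under 0.05, limma) and 0 to 365 when a tumour was left out (4076 to 6093 unadjusted). The count of 10 related genes was 17, 16, 1 and 0 in the same order, and 0 to 6 when a tumour was left out. The replicate block uses up residual degrees of freedom and gave Prrx1 and Tbx3 an adjusted p of 0.115 and 0.150 (limma). Whether same-numbered tumours form pairs is not known. The difference Prrx1 minus Prrx2 stayed between -0.68 and -0.54 and Twist1 minus Twist2 between -0.35 and -0.08 when a tumour was left out, while Tcf15 minus Tcf21 (0.11) was -0.0195 with normexp and -0.33 to 0.52 without a tumour. Signal near background limits Tbx5 and Tbx20.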
